A study of Mus musculus with 15 samples.

Results

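The miR-297, miR-466, miR-467 and miR-669 families of mouse microRNAs (miRNAs) were followed in the plasma of mice with polymicrobial sepsis. Members were all rows of the deposited miRNA read count table whose mature name carries one of those 4 numbers, with any letter, copy or arm suffix, and a row that joins several names was counted once. The rule gave 27 of 1161 mature rows, which hold 35 different names: 2 rows of miR-297, 10 of miR-466, 6 of miR-467 and 9 of miR-669. The libraries came from platelet-free plasma of male, wild type C57BL/6J mice, taken 24 h after surgery. There were 6 libraries from sham-operated mice and 9 from mice with CLP (cecal ligation and puncture), surgery in which bacteria leak from the gut into the abdomen. No drug, transgene or deletion is named for either group. Whether each library is a mouse of its own is not stated, so p-values reflect the spread over these libraries, which may be technical.

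Most genes for these miRNAs lie in a long rodent array inside an intron of Sfmbt2, which encodes a Polycomb group protein. In mouse the gene is imprinted, is expressed from the paternal copy in early embryos and the placenta, and its miRNA array is needed for normal placental growth. A miRNA is cut from a hairpin precursor, whose left and right sides give the 5p and 3p arms, and its seed (bases 2 to 8) largely sets which messenger RNAs it binds. The array arose by repeated duplication, so several precursors give the same or nearly the same mature miRNA, and a short read can match more than 1 of them.

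On mm10 (GRCm38), GENCODE M21 lists 81 precursor genes of the 4 families. Of these, 71 lie within Sfmbt2 on its own strand, between positions 10466663 and 10518279 of chromosome 2, a stretch of 51.6 kb. All 71 lie in the intron between exons 10 and 11 of the full-length transcript (10461473 to 10523944), 29 of them miR-669, 23 miR-466, 14 miR-467 and 5 miR-297 precursors. The other 10 precursors are scattered over other chromosomes. Matched by name, the rows with counts cover 58 of the 71 precursors in the intron and 1 of the 10 elsewhere, that of miR-669n on chromosome 3. Without arm or copy suffix the rows hold 29 names, of which 28 have a precursor so named. The name without one is miR-466a, and the gene listed as Mir466, in the intron, was counted as not named. Copy number varies: miR-669a has 12 precursors and miR-467a has 10, whereas miR-466g and miR-669c have 1 each.

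**Figure D1:**
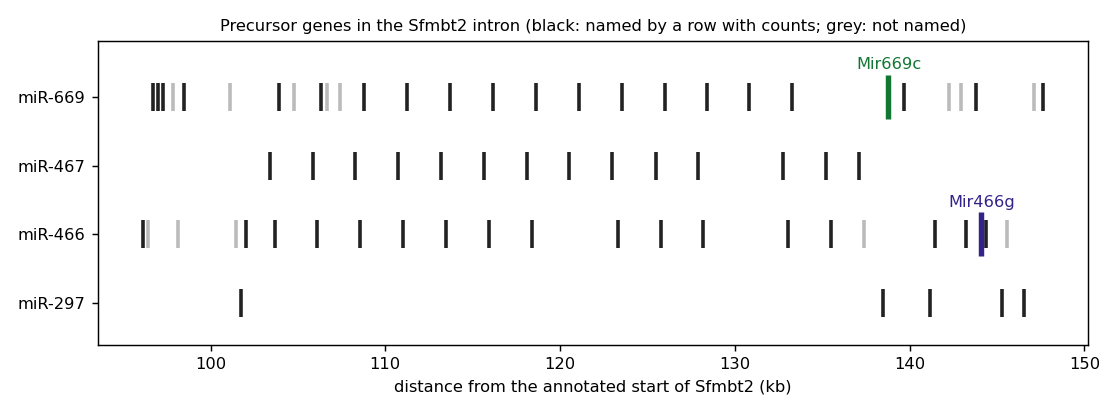
Positions of the 71 precursor genes inside the Sfmbt2 intron, as distance in kb from the annotated start of the gene (x axis), by family (y axis). Black marks are precursors whose name matches a row with counts and grey marks those without a match, Mir466 among them. Mir669c (green) and Mir466g (blue), the sources of the 2 rows past the test threshold, lie near the far end of the array, 5190 bases apart.

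Mature sequences in the RefSeq table (GRCm38.p6) were found for 8 names of the 4 families, of which 1, miR-669n, has a row with counts. That one and 4 others, from precursors outside Sfmbt2, are shown for their composition, with the seed in capitals: the first 3 are rich in alternating U and G and the last 2 in alternating C and A. miR-669n lies at chr3:115979905-115979924 on the plus strand.
miR-669n: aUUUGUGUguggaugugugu
miR-466k: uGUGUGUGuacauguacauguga
miR-467h: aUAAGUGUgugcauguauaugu
miR-466i-3p: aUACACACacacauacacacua
miR-467f: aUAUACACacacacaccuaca
The 8 family sequences have 8 different seeds, and all come from precursors outside Sfmbt2, so none describes the array itself. The median of their longest run of alternating U and G or C and A was 9 bases, against 3 bases over the 1679 mature names of the RefSeq table. Only 0.536% of those names reached 9 bases. Outside the 4 numbers there were 4 such names, and 1 of them, miR-574-5p, has a row in the table. Its hairpin, in an intron of Fam114a1, also makes the C- and A-rich miR-574-3p, which has a longest run of 7 bases.
miR-574-5p: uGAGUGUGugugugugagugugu
miR-574-3p: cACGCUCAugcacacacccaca

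Library totals ran from 5274654 to 13576434 mature miRNA counts. Levels are in CPM, counts per 1000000 of a library size adjusted by TMM, a scaling that sets the bulk of miRNAs equal between libraries. In these units 3 counts, the limit that a count of 0 allows, came to between 0.237 and 0.547 CPM. Blood and tissue miRNAs were present in both groups. The red cell miR-451a had a median of 6452 CPM in sham and 2322 in CLP. Red cell miR-144-3p was at 5258 and 4396, and the miR-486a/b-5p row at 238971 and 111000. White cell miR-223-3p was at 298 and 307, white cell miR-142a-3p at 3.58 and 3.87, and the hepatocyte miR-122-5p at 4874 and 7123. Of the muscle miRNAs, miR-1a-3p was at 604 and 17022, miR-206-3p at 123 and 1402 and miR-133a-3p at 491 and 1239. In the edgeR test described below miR-144-3p, miR-486a/b-5p, miR-223-3p, miR-142a-3p, miR-122-5p and miR-133a-3p did not pass (adjusted p = 0.838, 0.0867, 0.157, 0.611, 0.139 and 0.400). There miR-451a, miR-1a-3p and miR-206-3p passed. CLP 5 held the highest miR-451a (6613 CPM), miR-144-3p and miR-486a/b-5p and the lowest miR-1a-3p (3730 CPM) and miR-133a-3p of the CLP group. Its miR-206-3p (946 CPM) was not the lowest, which was 515 CPM. Whether CLP 5 lies outside the spread of the other CLP libraries was not tested. The part of these differences in the values below was not tested.

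The families were scarce in plasma. Their 27 rows held 3599 counts in all 15 libraries, 0.00291% of all mature counts, and 2507 of the 3599 were miR-669c-5p in CLP. miR-669c-5p was the 190th most abundant mature row by mean CPM and miR-466g the 357th. A member row was read in a median of 3 of the 15 libraries, against 10 for all mature rows. In all 15 libraries 2 members were read, miR-669c-5p and the joined row of miR-467a-5p and miR-467b-5p, which is 7.41% of members against 33.5% of all mature rows. In 1 library alone 8 members were read, 29.6% against 14.5%.

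**Figure D2:**
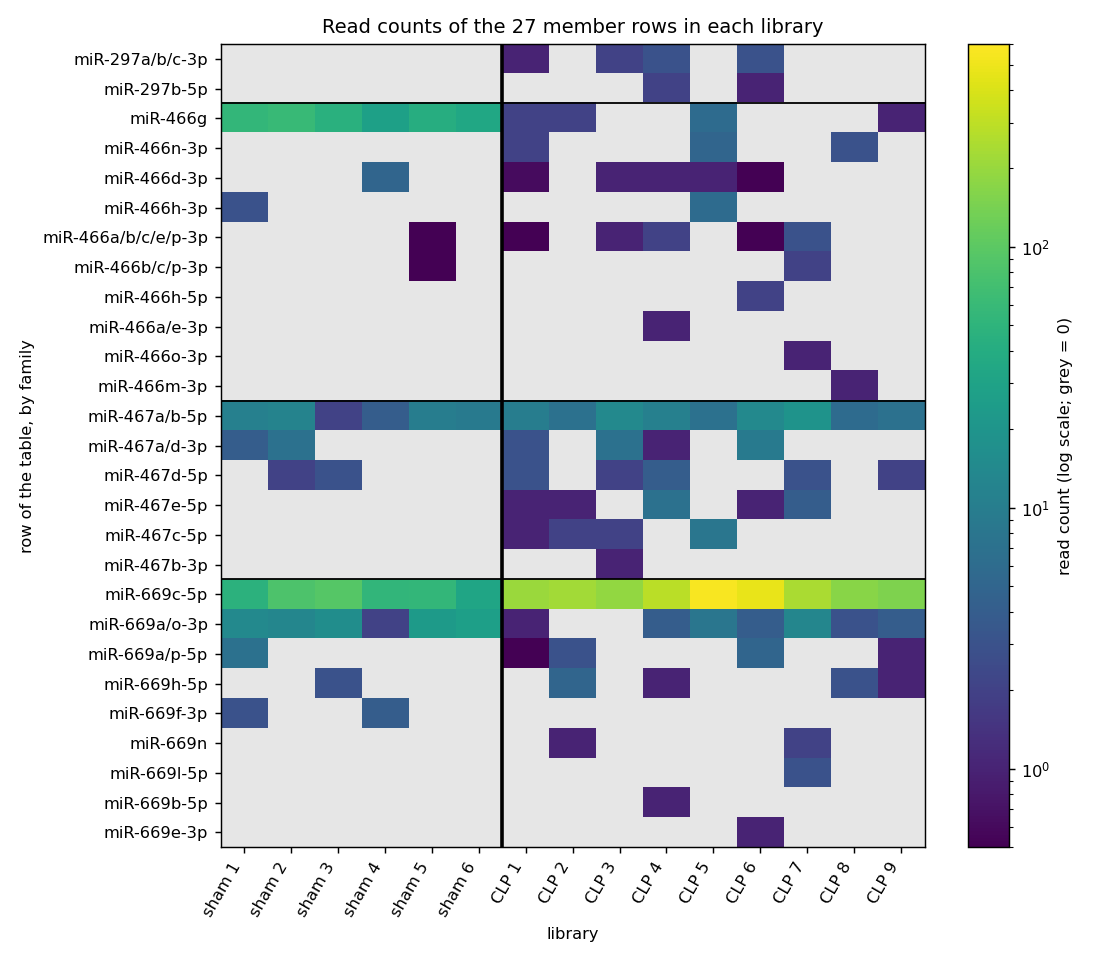
Read counts of the 27 member rows (y axis, grouped by family, joined names abbreviated) in the 6 sham and 9 CLP libraries (x axis), on a log colour scale with grey for 0. miR-466g is present across sham and nearly gone from CLP, miR-669c-5p is brighter in every CLP library, and most other rows are grey in most libraries.

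Of the 27 rows, 12 were read in both groups, 14 were at 0 in all 6 sham libraries and 1, miR-669f-3p, was at 0 in all 9 CLP libraries. The 14 rows absent from sham held 63 counts in total in CLP, at most 8 in any library, and the highest mean among them over all libraries was 0.117 CPM, that of miR-467e-5p. None passed the filter on low counts. Of all 1161 mature rows, 19.3% were at 0 in all sham libraries and 6.12% in all CLP libraries, against 51.9% and 3.70% of members. These shares are not matched for abundance, for depth or for the smaller number of sham libraries. After thinning each library to the smallest total, the expected number of members with at least 1 count was 5.65 ± 1.50 among the sham libraries (SD, n = 6) and 7.86 ± 1.92 among the CLP libraries (n = 9). The ranges overlapped, from 4.00 to 7.99 in sham and from 5.62 to 11.4 in CLP. With 10 counts as the limit the order turned, with 2.87 ± 0.469 members in sham and 1.11 ± 0.220 in CLP.

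Summed over rows, the 4 families differed in direction. The miR-669 family was the largest, at 10.9 ± 3.68 CPM (SD, n = 6) for sham and 33.4 ± 10.5 (n = 9) for CLP. Its sham libraries ran from 5.69 CPM in sham 6 through a median of 10.2 to 17.0 in sham 3, and its CLP libraries from 16.4 in CLP 3 through 36.1 to 50.5 in CLP 5. All CLP libraries but CLP 3 lay above every sham library. The miR-466 family went the other way, from 6.19 ± 1.74 CPM in sham, with a range of 3.28 to 8.02, to 0.572 ± 0.449 in CLP, with a range of 0.158 to 1.59. The groups did not overlap, and the highest CLP library was CLP 5. The miR-467 family was at 1.40 ± 0.818 CPM in sham and 2.04 ± 0.763 in CLP, and only CLP 1 and CLP 4 exceeded the sham range. The miR-297 family had no count in any sham library and 12 counts in 4 CLP libraries, a mean of 0.147 ± 0.223 CPM, which was 0.0828 CPM without CLP 4. All 4 families together came to 18.5 ± 5.27 CPM in sham and 36.1 ± 10.8 in CLP, and 8 of 9 CLP libraries exceeded every sham library. No p-value is given for these sums, since the rows summed were chosen as a group.

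**Figure D3:**
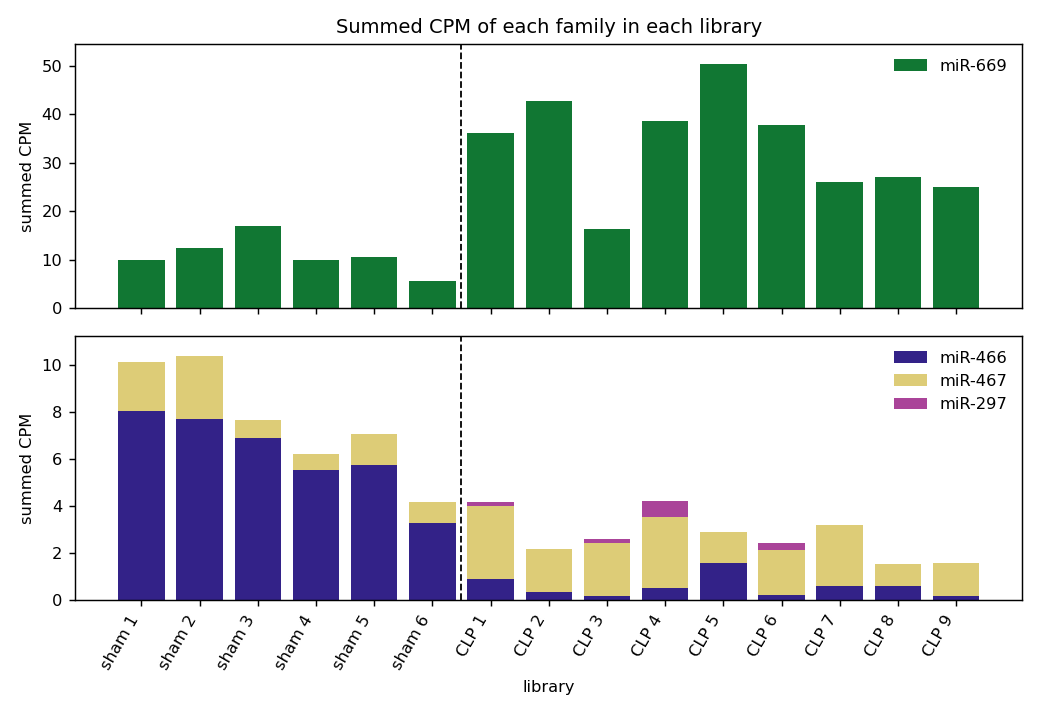
Summed CPM (y axes) of miR-669 rows (upper panel) and of miR-466, miR-467 and miR-297 rows stacked (lower panel) in each library (x axis, sham left of the dashed line). The upper bars are taller in CLP than in sham in all CLP libraries but CLP 3, which is near sham 3, while the miR-466 bars shrink from at least 3.28 CPM in sham to at most 1.59 in CLP.

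One row made up most of the miR-669 sum in both groups, and one most of the miR-466 sum in sham. miR-466g held 96.7% of miR-466 counts in sham and 24.4% in CLP. miR-669c-5p held 76.3% of miR-669 counts in sham and 97.5% in CLP. Without miR-466g, the other 9 miR-466 rows summed to 0.231 ± 0.337 CPM (SD, n = 6) for sham and 0.417 ± 0.345 (n = 9) for CLP, and the ranges overlapped. Without miR-669c-5p, the other 8 miR-669 rows summed to 2.45 ± 0.923 CPM in sham and 0.873 ± 0.574 in CLP, with 7 of 9 CLP libraries below every sham library, the direction opposite to miR-669c-5p itself. That difference lay in the joined row of miR-669a-3p and miR-669o-3p, without which the remaining 7 rows summed to a mean of 0.418 CPM in sham, with a range of 0 to 1.38, and 0.416 CPM in CLP, with a range of 0 to 1.64. Leaving out miR-466g and miR-669c-5p, the other 25 rows of the 4 families came to 4.08 ± 1.13 CPM in sham and 3.48 ± 1.01 in CLP. As a share of all counts of the 4 families, miR-466g had a median of 32.6% in sham and 0% in CLP, and miR-669c-5p 44.3% and 90.5%.

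CLP was set against sham to ask how extracellular miRNAs change in sepsis. Of the 27 members, 3 had enough counts to be tested (11.1%, against 36.7% of all mature rows). One rose, miR-669c-5p, and one fell, miR-466g. Over all 426 tested miRNAs, 108 were higher (25.4%) and 93 lower (21.8%) by edgeR's quasi-likelihood test at a Benjamini-Hochberg adjusted p under 0.05, so 47.2% passed in either direction, and the 2 of 3 members that did are too few to be told from that share. In both of these members the groups did not overlap in TMM-scaled CPM, as was so for 19.7% of the 426. For miR-669c-5p this depended on the scaling, as given below. The median log2 fold change was 0.26 over the 3 tested members and 0.11 over all tested.

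miR-466g, whose 1 annotated precursor lies at positions 10514595 to 10514674 of chromosome 2, was the member that fell. In sham 1 to sham 6 its counts were 55, 60, 45, 28, 42 and 34, or 7.60, 7.69, 6.87, 4.68, 5.60 and 3.28 CPM. In CLP, 5 of 9 libraries had no read of it, CLP 1 and CLP 2 had 2 each, CLP 5 had 6 and CLP 9 had 1, so the highest CLP level was 0.528 CPM. The groups did not overlap: counting error alone (95% exact binomial interval) put the lowest sham library, sham 6, at 2.27 to 4.58 CPM and CLP 5 at 0.194 to 1.15 CPM. The mean went from 5.96 ± 1.76 CPM (SD, n = 6) to 0.155 ± 0.206 (n = 9), 38.4-fold lower. In counts, 264 in all of sham compare with 11 in all of CLP. The CLP mean lies below what a count of 0 allows (0.237 to 0.547 CPM), so the size of the fold is only loosely set. The log2 fold change was -5.21 ± 0.64 (SE; edgeR adjusted p = 3.42e-06), the 2nd lowest of the 426 tested, among which 11.3% had all 9 CLP libraries below every sham library. PCR reads without molecular identifiers are not independent molecules, so the intervals cover counting error only. All counts of miR-466g were whole numbers.

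miR-669c-5p, from the 5p side of 1 annotated precursor at 10509296 to 10509404 of chromosome 2, was the member that rose. Its sham libraries held 48, 83, 92, 53, 55 and 32 counts, or 6.64, 10.6, 14.1, 8.86, 7.34 and 3.09 CPM. Its CLP libraries held 208, 226, 188, 288, 565, 468, 243, 168 and 153 counts from CLP 1 to CLP 9, between 16.4 CPM in CLP 3 and 49.8 in CLP 5, with a median of 35.9. All 9 CLP libraries lay above every sham library in TMM-scaled CPM, as was so for 8.45% of the 426 tested miRNAs. Scaled by library total alone, CLP 3 (188 of 13576434 counts) was below sham 3 (92 of 5566872), so the groups overlapped. The nearest were CLP 3 (95% exact binomial interval 14.1 to 18.9 CPM) and sham 3 (11.3 to 17.2 CPM), whose intervals overlap. The mean went from 8.44 ± 3.73 CPM (SD, n = 6) to 32.5 ± 10.4 (n = 9), 3.85-fold higher. The log2 fold change was 1.95 ± 0.31 (SE; edgeR adjusted p = 5.75e-05), the 27th highest of the 426.

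The precursors of the 2 miRNAs lie in the same intron and on the same strand, with 5190 bases between them, while the mature rows changed in opposite directions. CLP 5, with the highest miR-451a and lowest miR-1a-3p of the CLP group, had that group's highest value for miR-466g and for miR-669c-5p. It lay nearest to sham for the first and farthest from sham for the second. Without CLP 5 the log2 fold change was -6.01 for miR-466g (edgeR adjusted p = 6.53e-07) and 1.77 for miR-669c-5p (edgeR adjusted p = 0.000108).

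**Figure D4:**
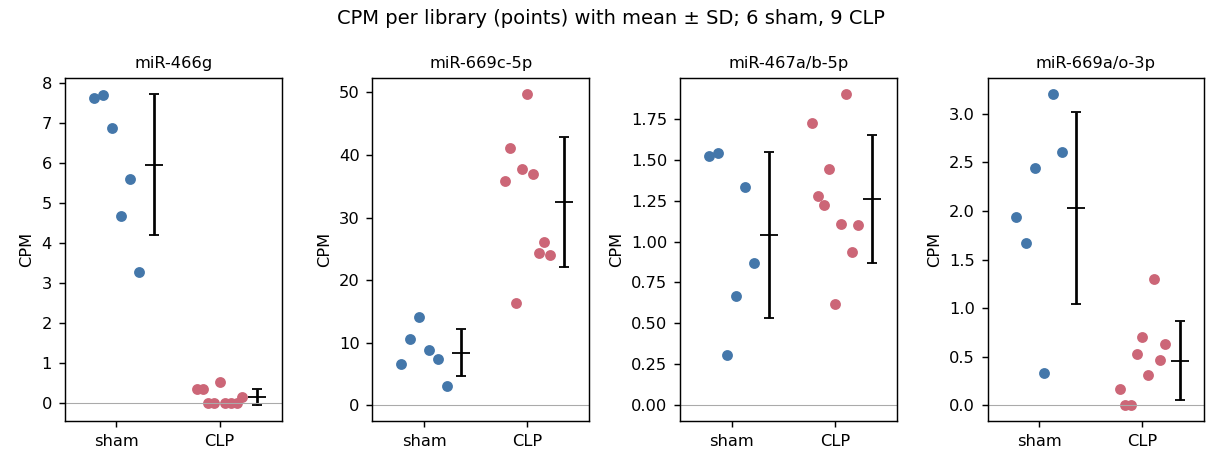
CPM of miR-466g, miR-669c-5p, the joined miR-467a/b-5p row and the joined miR-669a/o-3p row (y axes, each with its own scale) in sham (blue) and CLP (red), 1 point per library, with mean and SD in black. In these TMM-scaled values the points of the 2 groups are apart for miR-466g and miR-669c-5p and overlap for the other 2 rows.

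The third tested row, which joins miR-467a-5p and miR-467b-5p from 11 precursors of the array, did not pass. Its counts were 11, 12, 2, 4, 10 and 9 in sham and between 6 and 19 in CLP. The level was 1.04 ± 0.505 CPM (SD, n = 6) for sham and 1.26 ± 0.392 (n = 9) for CLP, with only 2 CLP libraries above every sham library. The log2 fold change was 0.26 ± 0.41 (SE; edgeR adjusted p = 0.624), which leaves room for a change in either direction.

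Of the 24 rows too scarce to be tested, the joined row of miR-669a-3p and miR-669o-3p came closest, with at least 10 counts in 6 libraries. Its sham counts were 14, 13, 16, 2, 24 and 27 and its CLP counts 1, 0, 0, 4, 8, 4, 13, 3 and 4. That is 2.03 ± 0.989 CPM (SD, n = 6) for sham and 0.457 ± 0.407 (n = 9) for CLP, and sham 4 lay among the CLP libraries. With no filter on low counts its log2 fold change was -2.17 ± 0.66 (SE; edgeR adjusted p = 0.00892), in a fit where 25.9% of 1160 rows passed. Without sham 4 it passed the filter and had -2.35 (edgeR adjusted p = 0.00412). The row of miR-669a-5p with miR-669p-5p, which shares the miR-669a hairpins with it, had 7 counts in sham 1, none in another sham library, and at most 5 in a CLP library.

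Of the remaining miR-467 rows, miR-467a-3p with miR-467d-3p was read in sham 1 and sham 2 (4 and 7 counts) and in 4 CLP libraries (1 to 9 counts). miR-467d-5p was read in 2 sham and 5 CLP libraries, with at most 4 counts. Among the rarer miR-466 rows, miR-466d-3p was at 5 counts in sham 4 and at most 1 in 5 CLP libraries, and miR-466n-3p in 3 CLP libraries with 2, 5 and 3 counts. The miR-297 3p row was read in CLP 1, CLP 3, CLP 4 and CLP 6 with 1, 2, 3 and 3 counts, and miR-297b-5p in CLP 4 and CLP 6 with 2 and 1. With no filter, 2 other rows passed, chosen here after their values were seen: miR-669f-3p, lower on 3 and 4 counts in 2 sham libraries (edgeR adjusted p = 0.0159), and miR-467e-5p, higher on 14 counts in 5 CLP libraries (edgeR adjusted p = 0.0468). Both rest on at most 7 counts in a library.

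By arm, the 11 rows named 5p held 426 counts in sham and 2672 in CLP, or 9.83 ± 3.82 CPM (SD, n = 6) and 34.7 ± 10.6 (n = 9), most of it miR-669c-5p. The 14 rows named 3p held 123 and 100 counts, or 2.68 ± 0.569 CPM in sham and 1.20 ± 0.595 in CLP. Of these, the joined row of miR-669a-3p and miR-669o-3p held 96 and 37 counts, or 2.03 and 0.457 CPM. The lower 3p sum in CLP rests on that row. None of the 3p rows passed the filter. The 2 rows with no arm in their name were miR-466g and miR-669n, and miR-669n, shown above, had 1 count in CLP 2 and 2 in CLP 7.

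Values that are not whole numbers mark reads that were divided between rows. Only 7 of the 405 member entries were more than 0.001 from a whole number (1.73%, against 4.00% of all mature entries), or 5.74% of the 122 entries above 0 against 6.72%. They lay in 3 miR-466 rows and 1 miR-669 row, in sham 5, CLP 1 and CLP 6, and none exceeded 0.611. In the 2 miR-297 and 6 miR-467 rows all entries were whole. In CLP 1, miR-466d-3p was at 0.611, and 8 precursor rows of miR-466 at 0.111 each, 0.111 being what a read divided in 9 gives. In the same library the miR-669a/p-5p row and the precursor row of miR-669e were both at 0.5. The 9 precursor rows of the 4 families held 3.89 counts in all. Of the 27 rows, 8 join between 2 and 5 names whose reads are not told apart in the table, so the level of a single name in them is not known.

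**Figure D5:**
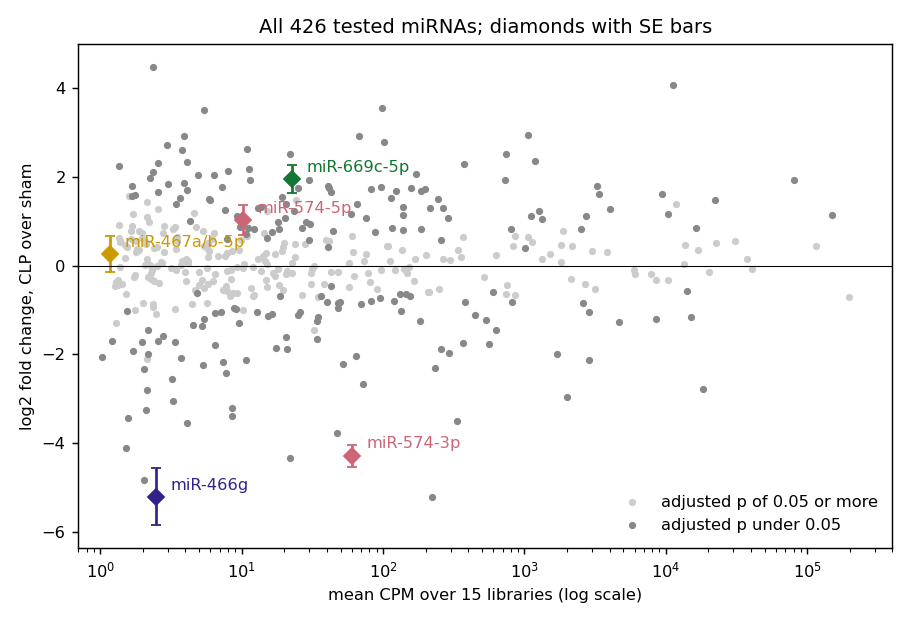
Log2 fold change of CLP over sham (y axis) against mean CPM (x axis, log scale) for all 426 tested miRNAs, dark grey where the edgeR adjusted p was under 0.05. Diamonds with SE bars mark the 3 tested members and both arms of miR-574: miR-466g lies at -5.21 near the lower edge, miR-669c-5p at 1.95 and miR-467a/b-5p at 0.26.

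Beside the members stand the rows of the miR-574 hairpin, outside the array, whose sequences are shown above. No sequence of miR-466g or miR-669c-5p was found, so their composition cannot be set against that of miR-574. The U- and G-rich miR-574-5p was at 6.33 ± 1.89 CPM (SD, n = 6) for sham and 12.8 ± 7.42 (n = 9) for CLP, a log2 fold change of 1.02 ± 0.34 (SE; edgeR adjusted p = 0.0196). It was above the whole sham range in 6 of the 9 CLP libraries. The C- and A-rich miR-574-3p went from 140 ± 38.4 to 7.14 ± 2.39 CPM, a log2 fold change of -4.28 ± 0.25 (edgeR adjusted p = 3.56e-10). The other large imprinted miRNA cluster, that of Mirg on chromosome 12, was far more abundant, with 926 ± 157 CPM in sham and 837 ± 383 in CLP summed over 58 rows. One of these rows, miR-541-5p, gave 662 CPM of that sum in sham and 306 in CLP. Of its 23 tested rows 11 rose and 4 fell, where 25.4% and 21.8% of all tested miRNAs did, with a median log2 fold change of 1.26 against 0.11 over all tested, and the difference between the clusters was not tested.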

How the data were processed

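The deposited table holds the authors' expected counts, reads per mature miRNA not scaled for depth, in 15 columns that each match 1 library. exceRpt, a small RNA pipeline, is named in the table's title, and mm10 is the build per the submitters' processing notes; aligner, mismatches, trimming and miRNA release are not given in the sources used here. Per the labels' protocols, total RNA came from plasma cleared of cells and platelets by centrifugation, and adapters were ligated, libraries sized on a gel and pooled at equal molarity, so counts are relative. The 44 precursor rows were left out of tests and totals. Counts were rounded and tested over 426 miRNAs with edgeR 4.0.16 in R 4.3.3 (filterByExpr, TMM, robust quasi-likelihood F test, two-sided, no covariate, Benjamini-Hochberg, threshold 0.05). SE is the log2 fold change over the square root of F. Detection was thinned to the smallest library by its hypergeometric expectation, and intervals are exact binomial (scipy 1.17.1). The fit was tested on simulated data. No 2 libraries of a group were copies (lowest chi-square per degree of freedom 236 in sham, 376 in CLP). Named were all tested members and, of the others, the 2 of each family with the highest mean CPM. The members and lists were chosen with earlier results of these data known. Alternatives were DESeq2 1.42.0, limma 3.58.1 (voom with quality weights), other scalings and filters, cutting counts down to whole numbers, a replicate block, and leaving out each library. Precursor positions come from GENCODE M21 and sequences from RefSeq.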

Additional observations from a re-analysis of the deposited data

Results flagged for a closer look

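One value stood far from the rest of its group among 18 sets of libraries examined (each tested member, each family sum, the sum over all 4 families and the number of members detected, in each group), where chance flags about 1 in 20. It is the summed miR-297 level of CLP 4, 0.656 CPM, against 0.316 CPM in the next library, CLP 6. It rests on 5 counts, 3 of the 3p row and 2 of miR-297b-5p, and is close to what 3 counts are worth.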

How the results depend on the processing

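The fall of miR-466g kept its direction and passed under the 23 alternatives in which it was tested, with a log2 fold change from -6.01 to -4.94 and adjusted p up to 0.000637. The rise of miR-669c-5p did so under all 24 (1.66 to 2.12, adjusted p up to 0.00420). The row of miR-467a-5p and miR-467b-5p never passed in 18 (0.01 to 0.40). In a fit blocked on the replicate number (replicates 1 to 6), the changes were -5.19 and 2.12 and 71 miRNAs were higher in place of 108, where the same 12 libraries without the block, a fit added after seeing the data, gave 87 (-4.94 and 2.01). Same-numbered libraries did not deviate together (correlations from -0.15 to -0.03). The labels state no link between them, and a weak one would not be seen this way. With a stricter filter (10 CPM in 6 libraries) 71 miRNAs were higher, and 0 members were lower because miR-466g was left out. With no filter 131 miRNAs were higher in place of 108 and 170 lower in place of 93, so 25.9% of 1160 rows passed. Of the 27 members in that fit, 2 were higher and 3 lower. Members lower in CLP numbered 1 to 2 on leaving out 1 library, 2 without sham 4; members higher numbered 1 throughout. The difference in detected members was 2.21, and -1.75 at 10 counts. Before thinning, miR-466g reached 10 counts in every sham library (28 to 60) and in no CLP library (at most 6). The joined row of miR-669a-3p and miR-669o-3p also reached 10 counts more often in sham. Why the rows differed was not tested. No difference of a family sum moved by more than the spread between libraries (1 SD), but that of miR-297 was 0.0379 CPM in place of 0.147 with joined rows left out, and that of miR-467 was 0.399 in place of 0.642 when scaled by library size alone. Depth limits the other 24 rows, whose counts lie mostly at or below what a 0 allows.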
